A study of Mus musculus with 6 samples.

Results

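Transforming growth factor β (TGFβ) signalling was examined in mouse hepatocytes through 10 genes chosen by name: the ligands Tgfb1, Tgfb2 and Tgfb3, the receptors Tgfbr1 and Tgfbr2, the signal transducers Smad2, Smad3 and Smad4, and the transcriptional co-repressors Skil and Tgif1. They are 10 of the 53599 gene symbols in the count table. All 10 had a count in at least 1 library, and 8 passed the filter on low counts and were tested, whereas Tgfb2 and Tgfb3 did not pass it. RNA-seq was performed on hepatocytes isolated 4 days after mice were injected with a serotype 8 adeno-associated virus (AAV8), with 3 libraries per group. The EV group (genotype label WT) received AAV8-TBG-Cre, and the Sox4 group received AAV8-TBG-HA-Sox4-P2A-Cre, in which HA-tagged Sox4 and Cre recombinase are separated by a self-cleaving peptide. TBG is a hepatocyte promoter, so Cre was delivered to hepatocytes in both groups, and the comparison is between Sox4 with Cre and Cre alone. By the study's methods the animals were male and homozygous for Rosa-LSL-Cas9-EGFP on C57BL/6J, an allele that Cre switches on in both groups. For mice made to express Sox4 the methods give an age at injection of 4 to 8 weeks, without the age of each animal. They also state a Sox4 vector dose for RNA-seq, higher than their general dose for exogenous expression. The EV dose in this comparison is not given in the sources used here. Cells were released with liberase and enriched on Percoll, which does not remove every non-hepatocyte.

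TGFβ ligands are secreted as latent complexes and, once released, bind TGFBR2, which recruits and phosphorylates the kinase TGFBR1. TGFBR1 phosphorylates SMAD2 and SMAD3, which join SMAD4 and enter the nucleus to regulate target genes, while SKIL (SnoN) and TGIF1 bind SMADs and restrain their activity. In the liver the ligands are made largely by non-parenchymal cells, and hepatocytes respond to them with growth arrest and changes in gene expression. The study's model places TGFβ among the injury signals upstream of Sox4. This raises the question of how the components of the pathway stand when Sox4 is supplied without a toxin. Mice given Sox4 still lost weight in the days after injection, by the paper's account. Their livers became smaller and paler, with atypical ductal cells. RNA levels do not measure ligand release, receptor activity or SMAD phosphorylation.

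Libraries held between 15090629 and 16964860 counts. Sox4 was at 2, 0 and 3 counts in the EV libraries and at 21697, 15097 and 11816 counts in Sox4 1 to 3, in accordance with the labels. Levels are given as CPM, counts for a library of 1000000, on library sizes scaled by the trimmed mean of M-values (TMM), and changes as log2 fold changes of Sox4 over EV with the standard error (SE). A change was called at an edgeR adjusted p under 0.05. By this rule 55.1% of the 12691 genes tested were called, 29.0% higher and 26.0% lower in Sox4, so a called gene is not a rare event in this comparison. Over all tested genes the median log2 fold change was 0.04 under TMM, against 0.51 under library size alone, and changes are relative to the TMM scale. Hepatocyte markers summed to between 115107 and 137715 CPM in EV, against 79978 to 90952 CPM in Sox4. Summed Kupffer cell and macrophage markers were at 13.4, 25.1 and 28.8 CPM in EV 1 to 3, against 29.1, 57.3 and 67.9 CPM in Sox4 1 to 3, and Sox4 2 and 3 held the most of them. A fit with Sox4 1 as the only Sox4 library was added after these sums were seen. In that fit the spread comes from the EV libraries alone and Sox4 1 is assumed to vary like them, so its values are given as descriptions.

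Of the 8 tested genes, 7 were higher in Sox4 and none was lower, and Tgfbr2 was not called. The same 7 genes had every Sox4 library above every EV library, which was true of 33.1% of all tested genes, while 29.9% had every Sox4 library below every EV library. The median log2 fold change of the 8 genes was 0.84. The 4 with the largest changes were Smad3, Tgif1, Tgfb1 and Skil, each more than 2-fold higher, and 16.5% of all tested genes were called at such a change. Smad2, Smad4 and Tgfbr1 were between 1.35-fold and 1.44-fold higher. The count was 5 without EV 1 or without Sox4 3, and 4 with Sox4 1 as the only Sox4 library.

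**Figure D1:**
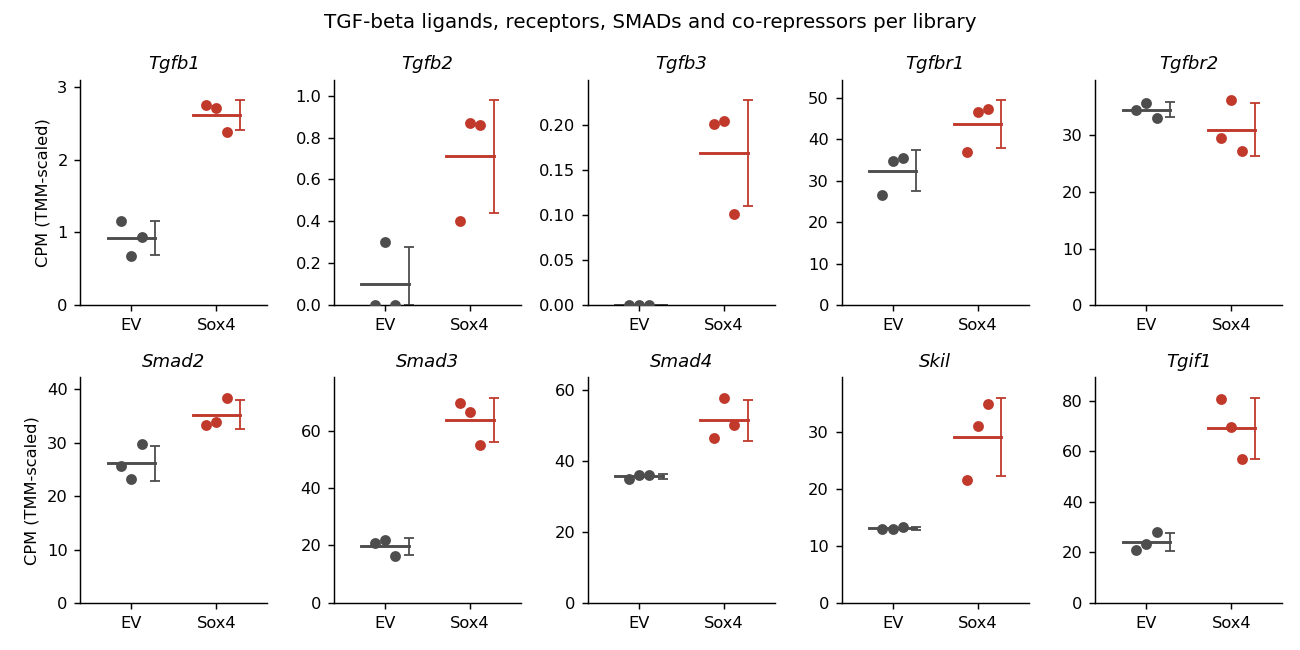
CPM on TMM-scaled library sizes (vertical axes, each from 0) of the 10 genes in the 3 EV (grey) and 3 Sox4 (red) libraries, with the group mean as a horizontal line and the SD as an error bar. Smad3 and Tgif1 lie at 55.0 CPM or more in every Sox4 library and at 28.2 CPM or less in every EV library, whereas the groups overlap for Tgfbr2.

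The ligands were the least abundant of the 10 genes. Tgfb1, the ligand most widely expressed in tissues, was counted 15, 9 and 13 times in the EV libraries 1 to 3 against 55, 53 and 47 times in Sox4 1 to 3. The 3 Sox4 libraries lay within 2.38 to 2.76 CPM, and the highest EV library was at 1.16 CPM. Tgfb1 rose from 0.928 ± 0.237 to 2.62 ± 0.204 CPM (SD, n = 3), or 1.49 on the log2 scale (SE 0.20, edgeR quasi-likelihood test, adjusted p = 0.00459). With any single library left out the value lay between 1.30 and 1.66 and stayed past the threshold.

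Tgfb2 was counted 0, 4 and 0 times in EV 1 to 3, against 8, 17 and 17 times in Sox4 1 to 3. All Sox4 libraries were above all EV libraries, at 0.710 ± 0.268 against 0.101 ± 0.175 CPM, but the gene did not pass the filter and was not tested. It was past the threshold in the fit without a filter and, where leaving out 1 library let it be tested, without EV 2 or Sox4 1, but not without EV 1 or EV 3. Tgfb3 had no count in EV and 4, 4 and 2 counts in Sox4. The floor of 3 counts corresponds to 0.218 to 0.231 CPM in EV, against 0.150 to 0.153 CPM in Sox4, so no fold change of Tgfb3 is given and its difference was not detectable at this depth. Genes on the opposite strand overlap Tgfb2 (Gm29491) and Tgfb3 (Gm37804 and Gm48008), and the strand setting of the counting is not given in the sources used here.

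Some markers of other liver cells were also higher in Sox4, while others were lower or not called. Of the 9 tested Kupffer cell and macrophage markers, 4 were higher and none lower in Sox4. The defining marker Clec4f was at 3.62, 6.53 and 7.04 CPM in EV 1 to 3 and at 4.91, 10.8 and 15.7 CPM in Sox4 1 to 3. Its groups overlapped and it was not called (edgeR adjusted p = 0.113). Of 4 tested stellate cell and fibroblast markers 3 were higher, and the sum of this list was 8.78, 27.2 and 47.0 CPM in EV against 135, 144 and 85.9 CPM in Sox4. Most of that sum was Reln, and without Reln it was 1.70, 4.56 and 9.44 CPM in EV and 8.82, 27.1 and 35.1 CPM in Sox4. Lrat, a marker of quiescent stellate cells, had 4, 3 and 8 counts in EV and 10, 34 and 50 in Sox4. It was not tested, and in CPM its groups overlapped (0.581 in EV 3 and 0.501 in Sox4 1). Hand2 was at 3 counts or fewer in every library. Endothelial markers had sums of 22.1 to 39.6 CPM in EV against 19.9 to 46.7 CPM in Sox4, with 2 of 10 higher and 1 lower, so that the groups overlapped in this sum. The sum of cholangiocyte markers did not overlap between groups, but this rested on Spp1, and Sox9 among them overlapped. Spp1 was at 4.85, 4.02 and 6.83 CPM in EV 1 to 3 and at 39.7, 41.4 and 35.2 CPM in Sox4 1 to 3. Cholangiocyte markers had sums of 27.5 to 43.7 CPM in EV against 72.6 to 85.2 CPM in Sox4, with 2 of 4 tested markers higher, and the defining marker Krt19 went from no count to 9, 2 and 7 counts. Lymphocyte, neutrophil and platelet markers summed to at most 5.82 CPM in any library, with Ly6g at 0 throughout. In these bulk samples more cells of a type and more RNA per cell cannot be told apart.

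The ligands were also read across the Sox4 libraries. Tgfb1 was at 2.76, 2.71 and 2.38 CPM in Sox4 1 to 3, from 55, 53 and 47 counts, which are too close to rank these libraries. Tgfb2 was at 0.401, 0.868 and 0.861 CPM, from 8, 17 and 17 counts. The log2 fold change of Tgfb1 was 1.57 with Sox4 1 as the only Sox4 library. The part of other cells in the values of these ligands was not tested.

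The receptors differed from each other. Tgfbr1, the type I receptor kinase, was at 26.7, 34.9 and 35.6 CPM in EV 1 to 3 and at 36.9, 46.6 and 47.2 CPM in Sox4 1 to 3. The gap between the lowest Sox4 library and the highest EV library was small against the spread within each group. Tgfbr1 was 1.35-fold higher, or 0.43 on the log2 scale (SE 0.18, adjusted p = 0.0335). This call was lost without EV 1 (0.29), EV 2 (0.47), Sox4 2 (0.38) or Sox4 3 (0.37).

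Tgfbr2, the ligand-binding type II receptor, was at 34.5, 35.8 and 33.1 CPM in EV and at 29.5, 36.2 and 27.2 CPM in Sox4. Sox4 2 was the highest of the 6 libraries and Sox4 1 and 3 were the lowest, so the groups overlapped. The log2 fold change was -0.15 (SE 0.13, adjusted p = 0.34) and took the other sign, 0.32, with library size alone, without passing the threshold. The ratio of the receptors does not depend on scaling. Per kilobase of exon, Tgfbr1 over Tgfbr2 was 0.968, 1.22 and 1.35 in EV and 1.57, 1.62 and 2.17 in Sox4. The log2 difference of this ratio was 0.60 (SE 0.21), with no overlap between groups. An exact two-sided permutation test gave p = 0.1, the smallest that 3 against 3 libraries allow, and 0.2 after adjustment over the 6 ratios computed.

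Among the SMADs, Smad3 changed most. This receptor-regulated SMAD, which binds DNA directly, was at 20.9, 21.9 and 16.2 CPM in EV 1 to 3 and at 69.6, 66.4 and 55.0 CPM in Sox4 1 to 3. The lowest Sox4 library was more than 2-fold above the highest EV library. Smad3 rose 3.24-fold, or 1.70 on the log2 scale (SE 0.17, adjusted p = 1.36e-05), and the value stayed between 1.56 and 1.80 with any single library left out. It was 1.83 with Sox4 1 alone and 2.17 with library size alone.

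Smad2, the other receptor-regulated SMAD of this pathway, was at 25.7, 23.2 and 29.7 CPM in EV and at 33.4, 33.9 and 38.4 CPM in Sox4. It was 1.35-fold higher, or 0.43 on the log2 scale (SE 0.12, adjusted p = 0.0184), which no longer passed the threshold without EV 1 (0.40), EV 2 (0.33) or Sox4 3 (0.37). Smad4, the SMAD shared by the TGFβ and BMP branches, was at 34.8, 36.0 and 36.0 CPM in EV and at 46.3, 57.7 and 50.1 CPM in Sox4. The 3 EV libraries lay close together and all 3 Sox4 libraries were above them. Smad4 rose by a log2 value of 0.53 (SE of 0.09, adjusted p = 0.00334), held with each library left out, and was at 0.38 with Sox4 1 alone.

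**Figure D2:**
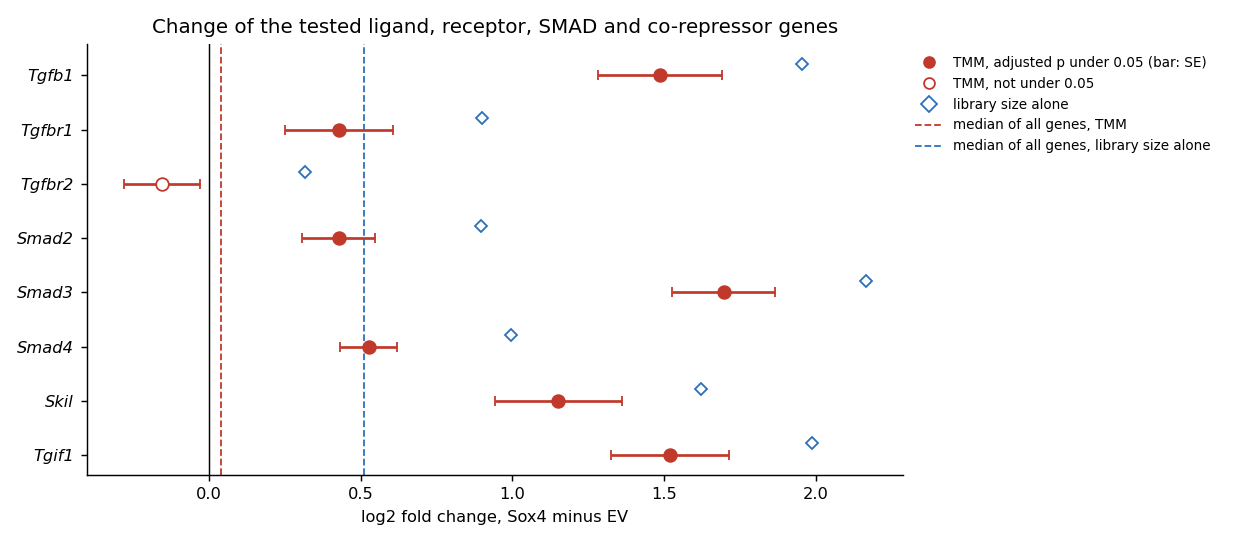
Log2 fold change of Sox4 over EV (axis in log2 units) of the 8 tested genes with TMM scaling, with the SE as an error bar, beside the value with library size alone. Smad3 stands at 1.70 and Tgfbr2 at -0.15 with TMM, and Tgfbr2 is the gene whose sign differs between the scalings.

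The ratios among the SMADs were compared within each library. Per kilobase of exon, Smad3 over Smad2 was 1.29, 1.50 and 0.865 in EV and 3.30, 3.10 and 2.27 in Sox4, a 2.41-fold rise of the ratio (log2 difference 1.27, SE 0.29). Smad4 over the sum of Smad2 and Smad3 went the other way, from 1.40, 1.47 and 1.54 in EV to 0.761, 0.980 and 0.943 in Sox4 (log2 difference -0.72, SE 0.12). By this measure Smad4 outnumbered the transcripts of Smad2 and Smad3 together in every EV library, and in no Sox4 library. That statement depends on the exon lengths used (3712 bases for Smad4, 8781 for Smad2 and 5542 for Smad3). In raw counts Smad4 was below the sum in every library, as in EV 1 with 452 against 334 and 271. Without length the log2 difference between groups was -0.59. Neither ratio overlapped between groups, and the exact permutation p was 0.1 for each, 0.2 adjusted.

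Both co-repressors were higher in Sox4. Tgif1, a homeodomain protein that recruits histone deacetylases to SMADs, was at 20.9, 23.2 and 28.2 CPM in EV 1 to 3 and at 80.9, 69.6 and 56.8 CPM in Sox4 1 to 3. It rose 2.87-fold, or 1.52 in log2 units (SE of 0.19, adjusted p = 4.47e-05), with values from 1.39 to 1.65 when single libraries were left out. Skil, which encodes SnoN and is itself a TGFβ target, was at 12.9, 13.0 and 13.4 CPM in EV and at 21.6, 31.1 and 34.9 CPM in Sox4. The EV libraries were nearly equal and the Sox4 libraries spread widely above them. Skil rose 2.22-fold, or 1.15 on the log2 scale (SE 0.21, adjusted p = 5.08e-04), and was at 0.72 with Sox4 1 alone.

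The co-repressors were ordered differently across the Sox4 libraries. Tgif1 and Smad3 were highest in Sox4 1 and lowest in Sox4 3, the order of Sox4 itself at 1088, 771 and 599 CPM. The counts of Tgfb1 were too close to rank these libraries. Skil, Tgfbr1 and Smad2 were lowest in Sox4 1 and highest in Sox4 3, the order of the macrophage markers. Neighbouring values were close for Tgfbr1 (46.6 and 47.2 CPM in Sox4 2 and 3) and Smad2 (33.4 and 33.9 CPM in Sox4 1 and 2). With 3 libraries no relation was tested. The ratio of Skil to Tgif1 was 0.360, 0.325 and 0.277 in EV and 0.155, 0.259 and 0.357 in Sox4, with overlap between groups (log2 difference -0.39, SE 0.37, exact permutation p = 0.4). The ligand ratios Tgfb2 over Tgfb1 and Tgfb3 over Tgfb1 also overlapped (exact permutation p = 0.4 and 0.2), and both rest on the pseudocount in EV.

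**Figure D3:**
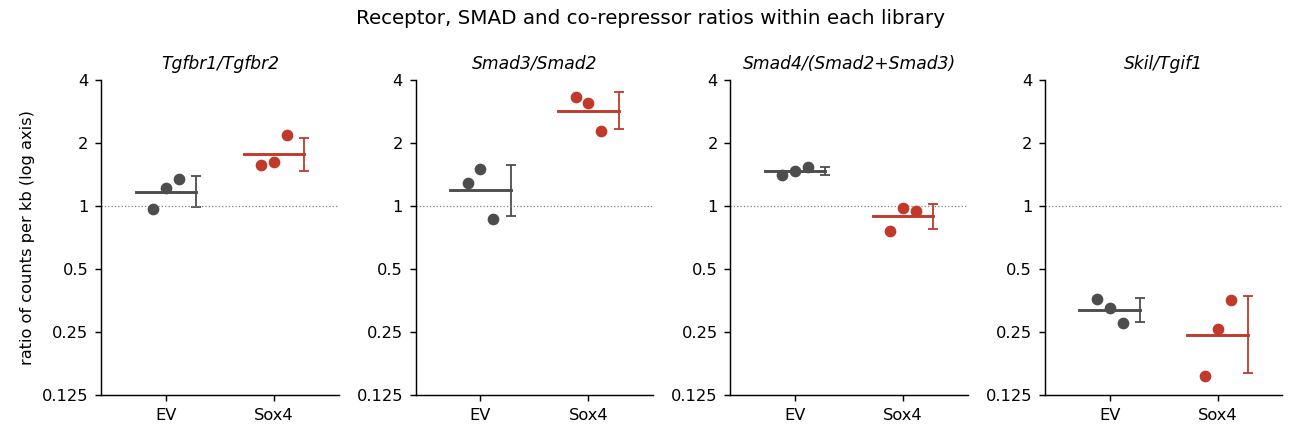
Ratios of counts per kilobase of exon within each library (vertical axis, log scale) for receptor, SMAD and co-repressor pairs in the EV (grey) and Sox4 (red) libraries, with the mean of the log2 ratios as a line and their SD as an error bar. Smad3 over Smad2 is higher and Smad4 over the sum of Smad2 and Smad3 is lower in every Sox4 library than in any EV library, whereas Skil over Tgif1 overlaps.

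Levels were ranked within each group as CPM per kilobase of exon. In EV, Smad4 was highest at 9.59 ± 0.183, followed by Tgfbr1 at 4.95 ± 0.758, Tgif1 at 4.28 ± 0.662, Tgfbr2 at 4.21 ± 0.162, Smad3 at 3.55 ± 0.547 and Smad2 at 2.98 ± 0.375. From Tgfbr1 down to Smad2, each neighbour in this order lay within the SDs of the next. Skil stood lower at 1.35 ± 0.0281 and Tgfb1 at 0.184 ± 0.0469. In Sox4, Smad4 (13.8 ± 1.56), Tgif1 (12.3 ± 2.14) and Smad3 (11.5 ± 1.39) formed the top of the order, and neighbours among them did not differ beyond their SDs. Tgfbr1 (6.67 ± 0.889) came next, then Smad2 (4.01 ± 0.313), Tgfbr2 (3.78 ± 0.568) and Skil (3.01 ± 0.709), whose neighbours overlapped, and Tgfb1 (0.519 ± 0.0404). Tgfb2 was at 0.123 in Sox4, and both it and Tgfb3 stood below Tgfb1 in each group.

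Promoters are shown for the pair of receptors that differed and for Smad3. They are the 250 bases before the RefSeq transcription start on GRCm38.p6 (the counts are on GRCm39), read 5′ to 3′ on the gene's strand. Of the 10 genes, 6 had an entry, and Tgfbr1 is shown at the first of 2 starts. Tgfbr1 lies at chr4:47352972-47353221 on the plus strand, Tgfbr2 at chr9:116175364-116175613 on the minus strand and Smad3 at chr9:63757995-63758244 on the minus strand. Capitals mark matches to the motifs searched.
Tgfbr1: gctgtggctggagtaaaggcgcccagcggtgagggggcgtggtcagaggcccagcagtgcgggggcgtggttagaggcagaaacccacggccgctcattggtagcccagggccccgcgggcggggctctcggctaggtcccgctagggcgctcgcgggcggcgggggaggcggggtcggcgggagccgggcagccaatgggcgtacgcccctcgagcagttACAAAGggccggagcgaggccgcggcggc
Tgfbr2: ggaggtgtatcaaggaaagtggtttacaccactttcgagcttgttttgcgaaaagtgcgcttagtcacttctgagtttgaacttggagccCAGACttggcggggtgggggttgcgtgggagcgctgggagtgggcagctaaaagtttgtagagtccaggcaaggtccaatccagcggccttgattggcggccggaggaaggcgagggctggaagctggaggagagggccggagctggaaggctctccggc
Smad3: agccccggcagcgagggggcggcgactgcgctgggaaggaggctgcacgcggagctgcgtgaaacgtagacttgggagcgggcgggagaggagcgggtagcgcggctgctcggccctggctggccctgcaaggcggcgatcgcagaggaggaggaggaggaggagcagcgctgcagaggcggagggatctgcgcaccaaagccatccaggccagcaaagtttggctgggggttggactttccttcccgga

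Both strands were searched for the SOX core motifs ACAAAG and ACAATG, the SMAD box CAGAC, the SMAD palindrome GTCTAGAC, which shares letters with the box but does not contain it, and the AP-1 site TGANTCA. The Smad3 and Tgfb1 windows held none of these. The first Tgfbr1 window held ACAAAG, which 16.5% of 32851 promoter windows of this length held, and the Tgfbr2 window held CAGAC, held by 42.2%. The second Tgfbr1 start held ACAAAG as well, together with the SMAD box. ACAATG was in 10.7%, TGANTCA in 6.75% and GTCTAGAC in 0.167% of windows. Tgfb2 held ACAAAG and 2 matches to CAGAC, and the 5 starts of Tgif1 held CAGAC at 3 and ACAAAG at 1. A match is a description of the letters and not a binding site, and the absence of a match concerns these windows only.

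Genes for latency and activation of the ligands were mixed in direction. Of 15 genes, 10 were tested, 4 were higher, 2 were lower and 4 were not called, with a median log2 fold change of 0.44. Ltbp1, Ltbp2, Ltbp3, Itgb6 and Itgb8 were not tested. Thbs1, which encodes the TGFβ activator thrombospondin 1, had 0, 3 and 0 counts in EV and 43, 63 and 75 counts in Sox4, at least 13.6-fold higher (adjusted p = 2.58e-04). Mmp14, a membrane metalloproteinase, rose from 38.1 ± 5.01 to 268 ± 27.9 CPM (log2 fold change 2.82, adjusted p = 8.16e-07). Furin, the protease that cleaves TGFβ precursors, fell from 334 ± 19.4 to 140.3 ± 9.41 CPM (log2 fold change -1.25, adjusted p = 2.37e-05).

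The integrin genes moved less. Itgav was higher by 0.45 and Itgb1 by 0.38, and Itgb5 was lower by 0.43 on the log2 scale (adjusted p = 0.0125, 0.0253 and 0.0340). The Itgav call was lost without EV 1 (0.35). That of Itgb1 was lost in 5 of 6 fits that left out 1 library, all but that without Sox4 1, with values from 0.30 to 0.44. Itgb5 was not past the threshold without EV 1 (-0.41), EV 2 (-0.42), Sox4 2 (-0.42) or Sox4 3 (-0.29), and stood at 0.041 with library size alone.

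Co-receptors and activin-type receptors showed few calls. Of 8 genes, 6 were tested, none was higher and Acvr1b, which encodes the activin receptor ALK4, was lower, from 23.7 ± 2.65 to 16.3 ± 0.502 CPM (log2 fold change -0.54, adjusted p = 0.00628). Acvrl1 and Acvr1c were not tested, and Acvr1c had no count in any library. The median of the 6 genes was 0.28. With library size alone Acvr1b was at -0.075 (adjusted p = 0.646) and was not among the 3 genes then called. Without Sox4 1 there were 2 calls, Acvr1b included.

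Inhibitory SMAD genes were higher, whereas genes for turnover of receptors and SMADs were mixed in direction. Of 10 genes for inhibitory SMADs and for turnover of receptors and SMADs, all were tested, 6 were higher, 2 were lower and 2 were not called, with a median of 0.36. Smad7, the inhibitory SMAD induced by TGFβ, was counted 101, 77 and 101 times in EV 1 to 3 and 710, 673 and 942 times in Sox4 1 to 3. It rose 5.61-fold, from 6.99 ± 1.01 to 39.2 ± 7.39 CPM (adjusted p = 4.93e-06). Pmepa1, which binds receptor-regulated SMADs and limits their activation, had 3, 7 and 3 counts in EV and 314, 268 and 258 in Sox4 (log2 fold change 5.41, adjusted p = 1.21e-06). Smad6, the inhibitory SMAD of the BMP branch, rose by 1.72 (adjusted p = 0.00111) and Nedd4l, a ubiquitin ligase, by 0.87 (adjusted p = 0.00125). Ppm1a, a SMAD phosphatase, fell by 0.76 on the log2 scale (adjusted p = 2.76e-04). Wwp1, a ubiquitin ligase, was at -0.43 (adjusted p = 0.0241), was not past the threshold without EV 3 (-0.39), and stood at 0.036 with library size alone.

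SMAD cofactors were higher or not called. Of 11 genes, 8 were tested, 5 were higher and none lower, with a median of 0.52, and Foxh1, Runx1 and Zeb2 were not tested. Tgif2, the paralog of Tgif1, had no count in EV and 23, 19 and 25 counts in Sox4, at least 5.01-fold higher (adjusted p = 5.61e-04). Zeb1 rose by 0.74, the co-repressor Ski by 0.65, Trim33, a SMAD4-binding ubiquitin ligase, by 0.62 and the acetyltransferase gene Ep300 by 0.41 (adjusted p = 0.00137, 0.00175, 0.00266 and 0.00548). With library size alone all 8 were called.

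The last list fixed for the pathway held 30 genes known as TGFβ targets in various cells, of which 22 were tested and 8 were not. Among those tested, 16 were higher and 2 were lower, with a median log2 fold change of 1.61. The other 4, Fn1, Jun, Junb and Klf10, were not called. Skil, Smad7 and Pmepa1 belong to this list as well as to the groups above. Ccn2, a matricellular protein gene, had 0, 1 and 0 counts in EV and 202, 405 and 447 counts in Sox4, at least 79.0-fold higher (adjusted p = 6.51e-06). Gadd45b, a stress-response gene, rose from 0.954 ± 0.351 to 29.4 ± 11.6 CPM (4.94, adjusted p = 9.37e-06). Id1, an inhibitor of helix-loop-helix factors that also responds to BMP, had 31, 15 and 9 counts in EV and 1229, 1455 and 1522 in Sox4 (5.68, adjusted p = 2.59e-06). Snai2, the transcription factor Slug, went the other way, from 88, 194 and 155 counts in EV to 8, 18 and 31 in Sox4 (-3.49, adjusted p = 2.03e-04). Many targets respond to other signals too, and the part of other cells in those that stromal cells express was not tested.

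**Figure D4:**
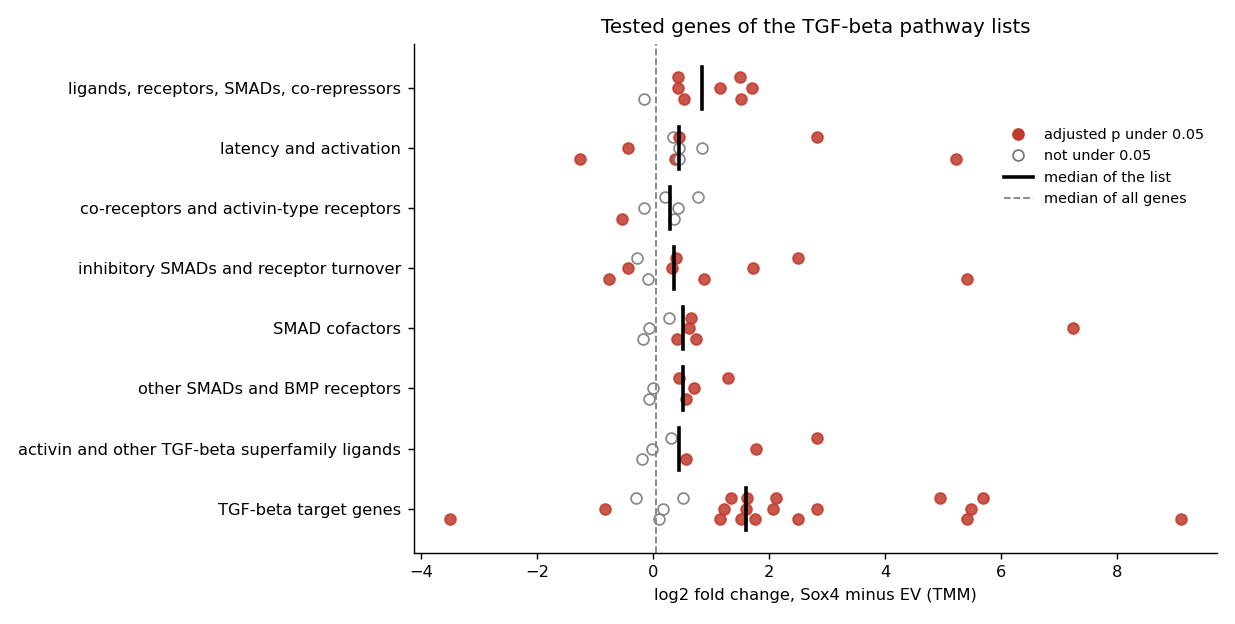
Log2 fold change of Sox4 over EV with TMM scaling (horizontal axis) of every tested gene in each pathway list, filled where the adjusted p was under 0.05, with the list median as a bar and the median of all genes as a dashed line. The target list has the median at 1.61 and the co-receptor list at 0.28, and the fitted values of Ccn2, Tgif2 and Thbs1 depend on the prior count because their EV libraries were at or under the floor.

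For the most changed gene of each role, the 3 genes most alike across the 6 libraries were taken, by the root-mean-square difference of centred log2 CPM, among 9024 or 9025 genes whose mean count was 100 or more. For Smad3 these were Llgl1 (0.0941), Zswim4 (0.0980) and Ankrd50 (0.102), where the median of all genes was 0.915. For Tgif1 they were Cpne2 (0.0759), Srxn1 (0.0911) and Cks1b (0.0976), for Tgfbr1 Siae (0.0397), Ing3 (0.0413) and Parg (0.0578), and for Tgfb1 Bcl9 (0.0682), Shkbp1 (0.0859) and Zfp408 (0.111). These are descriptions over 6 libraries that share the 2 groups.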

How the data were processed

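Gene counts were deposited by the authors as raw counts per gene; per the labels, reads were aligned to GRCm39 with STAR 2.7.10b and counted with featureCounts 2.0.1, and the strand setting and annotation release are not given in the sources used here. The authors also deposited a normalized signal, the counts divided by a DESeq2 size factor per library. Groups and replicate numbers came from the labels. Replicate libraries varied beyond counting noise (chi-square per degree of freedom 18.7 to 71.7), and p-values measure the spread between these libraries.

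In R 4.3.3, genes were filtered with filterByExpr (minimum count 10, minimum total 15), scaled by TMM and tested with the edgeR 4.0.16 quasi-likelihood F test over 12691 genes, with Benjamini-Hochberg adjustment and a threshold of 0.05. The script was tested on simulated data. Alternatives used other scalings and filters, limma 3.58.1, DESeq2 1.42.0 and left-out libraries. Sox4 1 as the only Sox4 library was an alternative added after the marker sums were seen. The SE was taken on log2 CPM (prior count 2), for the difference of the group means. Floors cover counting error only. A lower bound is the mean Sox4 level over the mean EV floor. Within-library ratios used a pseudocount of 0.5 and exon lengths from GENCODE M21 (GRCm38). All 10 genes and the lists were chosen with earlier results of these data known. From each other list, at most 6 called genes with the largest change were named. A gene of the target list is counted in the totals but is not reported here.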

Additional observations from a re-analysis of the deposited data

How the results depend on the processing

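Smad3, Tgif1, Skil and Tgfb1 kept their direction and their side of the threshold in every alternative that tested them, and Smad4 in all but the fit with Sox4 1 as the only Sox4 library, in which EV alone supplies the spread. The number of the 10 genes called was between 5 and 8 with 1 library left out and 4 with Sox4 1 alone. Without a filter 8 of 10 were called. Library size alone raised the median of all genes from 0.04 to 0.51, and among the genes named it turned the sign of Tgfbr2 (0.32), Itgb5 (0.041) and Wwp1 (0.036). Called genes with 1 library left out were 3 to 7 for latency, 1 to 2 for co-receptors, 2 to 4 for other SMADs and BMP receptors, and 3 to 5 for activin and related ligands. Called co-receptors were 3 with library size alone, 2 with upper-quartile scaling, 2 without a filter and 0 with Sox4 1 alone. Called cofactors were 8 with library size alone and 3 with Sox4 1 alone. Other SMADs and BMP receptors were 1 with Sox4 1 alone, and activin and related ligands were 5 without a filter. The cause was not tested.

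Deviations of same-numbered libraries correlated at 0.27, -0.09 and 0.13. Pairs with different numbers ranged from -0.27 (EV 3 with Sox4 1) to 0.18 (EV 3 with Sox4 2). These values cannot decide whether same-numbered libraries shared more than a number. With the number as a replicate block, 7 of the tested 8 genes and 2 co-receptors were called. Low counts limit Tgfb2 and Tgfb3.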

Other observations

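Genes of the neighbouring BMP and activin branches, which share Smad4 and the inhibitory SMADs, were also read from the same fit. Of 6 genes for other SMADs and BMP receptors, all were tested and 4 were higher, with a median log2 fold change of 0.51. Smad5, a BMP-regulated SMAD, rose 2.43-fold from 28.1 ± 2.53 to 68.2 ± 2.31 CPM (SD, n = 3; edgeR adjusted p = 1.23e-05). Bmpr1a rose by 0.70 (adjusted p = 0.00227), Bmpr2 by 0.57 (adjusted p = 0.0124) and Smad1 by 0.45 (adjusted p = 0.0378) on the log2 scale. Bmpr2 was not past the threshold without EV 2 (0.53) or Sox4 2 (0.49), and Smad1 was not without EV 2 (0.37), EV 3 (0.36) or Sox4 2 (0.33).

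Id2 and Id3, named here after their values were seen, were higher beside Id1. Id2 rose from 128 ± 20.4 to 394 ± 110.6 CPM (adjusted p = 2.18e-04). Id3 rose from 24.6 ± 12.9 to 173 ± 37.4 CPM (adjusted p = 9.12e-04). Of 12 activin and related ligand genes, 6 were tested, 3 were higher and none was lower, with a median of 0.44. Inhibin subunit genes Inhba and Inhbc and the ligand gene Gdf11 were the 3 that rose. Inhba went from 9.78 ± 1.37 to 33.6 ± 6.83 CPM (log2 fold change 1.78, adjusted p = 3.30e-05), Inhbc rose by 0.57 (adjusted p = 0.00144) and Gdf11 by 2.83 (adjusted p = 0.00498). Gdf11 had 4, 6 and 0 counts in EV, and its value was 3.53 without EV 2 and 2.22 without EV 3. Inhbb, Mstn, Fstl1, Fstl3, Lefty1 and Nodal were not tested.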
